A study of Mus musculus with 2 samples.

Results

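The serum amyloid, lipocalin and orosomucoid genes described here are 10 genes for secreted acute phase and carrier proteins of the liver: Saa1, Saa2, Saa3, Saa4, Lcn2, Orm1, Orm2, Hp, Hpx and Crp. They were taken by symbol from the gene table of the 2 deposited count matrices, in which all 10 members were found among 32285 genes. When inflammatory cytokines reach the liver, interleukin-6 acts through its receptor and STAT3, and interleukin-1 acts through NF-kB and C/EBP factors, to raise transcription of such genes in hepatocytes, and the proteins pass into the blood. Serum amyloid A associates with high-density lipoprotein, lipocalin-2 withholds iron from bacteria by binding their siderophores, the orosomucoids carry lipophilic ligands, haptoglobin binds free hemoglobin and hemopexin binds free heme. In the mouse, C-reactive protein is only a minor acute phase protein, unlike in humans.

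The study asked what loss of the Nogo-B receptor (NgBR, gene Nus1), a subunit of the enzyme that makes dolichol, does to the fatty liver. One library came from the liver of WT mice (genotype label CTRL). The other came from liver plus tumor of N-LKO mice, in which albumin-driven Cre removes the floxed first exon of Nus1 in hepatocytes. Per the study's methods the mice were male, on a C57BL6 background, and the N-LKO suspension had tumor cells mixed in beside hepatocytes and nonparenchymal cells. Both groups had eaten the diet for 16 weeks, which the titles call HFD and the treatment labels call WD. Each group had 1 library, and how many animals gave cells to a library is not given in the sources used here. Genotype, tumor tissue, cell mixing and library therefore cannot be told apart, no test over samples was possible, and every interval below is a 95% interval that covers counting error only. Liver cells were captured in droplets and the 3′ ends of their transcripts were counted as unique molecular identifiers (UMIs), each standing for 1 captured RNA molecule. Levels are given as CPM, the UMIs of a gene scaled to 1000000 UMIs of its cell class.

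All 10 identifiers were also found in the GENCODE vM21 annotation of mouse build GRCm38. The 4 Saa genes lie within 42316 bases of chromosome 7, where Saa1 (chr7:46740497-46742980, minus strand) and Saa2 (chr7:46751790-46754313, plus strand) are transcribed away from each other from starts 8810 bases apart, beside Saa4 (chr7:46727998-46732603) and Saa3 (chr7:46711998-46715700). Orm1 (chr4:63344560-63348163) and Orm2 (chr4:63362449-63365878) are neighbours on chromosome 4. Lcn2 is at chr2:32384633-32388252, Hp at chr8:109575128-109579172 and Hpx at chr7:105591613-105600137. Crp is annotated over 134977 bases (chr1:172698055-172833031) because of 1 long transcript, whereas its first annotated transcript spans 1908 bases, and it overlaps 1 other gene, Gm38051.

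The members with the largest ratios in N-LKO hepatocyte-like cells, Lcn2, Orm2, Saa2 and Saa1, each hold a match to a C/EBP motif in the 250 bases before the start that RefSeq gives, so these stretches are printed here. Saa4, whose ratio was near 0, holds one as well. RefSeq promoter entries (GRCm38.p6) were found for 8 of the 10 members, Orm1 and Hp being the others. The C/EBP motif TTGNNCAA, searched on both strands in the 250 bases before the RefSeq start, was in 5 of these 8 promoters (Saa1, Saa2, Saa4, Lcn2 and Orm2) and in 5.65% of 32851 promoters of all genes. The STAT motif TTCNNNGAA was in 0 of 8 and in 7.02% of all promoters, and the NF-kB consensus was in 2 of 8 (Saa1 and Lcn2) and in 16.8%. The matches do not overlap each other, and a match is a description of letters and no evidence of binding. In the sequences below, printed 5′ to 3′ on the strand of the gene, capitals mark matches to the C/EBP motif and, in Saa1 only, also to the NF-kB consensus. Saa1 covers chr7:46742981-46743230, Saa2 chr7:46751639-46751668, Orm2 chr4:63362199-63362448 and Lcn2 chr2:32387937-32387966. The RefSeq starts of Saa2 and Lcn2 lie inside the GENCODE genes given above, and 43 and 197 bases of their windows are GENCODE exons, so only 30 bases of each are shown. The Lcn2 stretch lies within the annotated gene and is upstream of the RefSeq start only.
Saa1: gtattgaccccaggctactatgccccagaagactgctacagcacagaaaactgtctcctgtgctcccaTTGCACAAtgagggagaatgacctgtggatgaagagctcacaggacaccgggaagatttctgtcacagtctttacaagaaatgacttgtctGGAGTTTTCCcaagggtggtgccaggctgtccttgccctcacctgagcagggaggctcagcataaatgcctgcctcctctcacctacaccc
Saa2: ctgtgctcccaTTGCACAAtgagggaaaat
Orm2: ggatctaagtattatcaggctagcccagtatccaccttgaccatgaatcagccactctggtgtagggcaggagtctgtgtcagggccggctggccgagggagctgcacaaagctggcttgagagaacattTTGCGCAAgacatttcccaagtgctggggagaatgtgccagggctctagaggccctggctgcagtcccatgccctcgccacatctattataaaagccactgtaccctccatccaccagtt
Lcn2: agcccttcctgTTGCTCAAccttgcacagt
Counted from the RefSeq starts, the match began 182 bases before Saa1, 183 before Saa2, 120 before Orm2 and 216 before Lcn2. Over the 250 bases before the RefSeq starts, Saa1 and Saa2 were 94.8% identical. Their transcripts were 92.4% identical over the last 300 bases, where a 3′ assay reads, and those of Orm1 and Orm2 were 97.7% identical, so UMIs of these pairs may have been shared or dropped in counting and each pair is best read together.

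The matrices held 100171 barcodes and 85522287 UMIs (WT) and 90147 barcodes and 87575064 UMIs (N-LKO), of which 18434 and 19851 passed the filters on depth, mitochondrial share and doublets, with medians of 1401 and 1454 UMIs. Of these, 122 barcodes occurred in both libraries. Clustering of both libraries together, with the members left out of the genes used, gave 23 clusters, of which 1 with mixed markers was left out. Of the others, 6 were hepatocyte-like (9962 WT and 4171 N-LKO cells). All 10 hepatocyte markers were detected in them in each library, but also in neutrophil-like, macrophage-like and endothelial-like cells, so detection does not set them apart. The markers summed to 39421 CPM (WT) and 25160.5 CPM (N-LKO) in hepatocyte-like cells, against 15336 and 11042 CPM in neutrophil-like cells. Nus1 fell from 73.0 to 34.5 CPM in hepatocyte-like cells (log2 ratio -1.08), although a 3′ tag lies outside the deleted first exon and so does not check the deletion. One subgroup stood apart. Cluster 6 held 2087 N-LKO cells and 1 WT cell, had 19859 CPM of the nuclear RNA Malat1 against 4549 in cluster 7, the other large N-LKO subgroup, and its summed hepatocyte markers (12402 CPM) were close to those of N-LKO neutrophil-like cells (11042 CPM) and below those of cluster 7 (36634 CPM). It had 2490 CPM of Cps1, an enzyme of the urea cycle, against 767 CPM in N-LKO neutrophil-like cells. Alb, another hepatocyte marker, went the other way, at 4213 CPM in cluster 6 against 4751 CPM in those cells. Cluster 6 passed the naming rule narrowly with 3 raised markers. Key results for the members are therefore also given without it. Barcodes with fewer than 500 UMIs (18526 WT and 13674 N-LKO) were read as RNA free in the suspension. The smallest barcode of the WT matrix held 326 UMIs and that of the N-LKO matrix 377, so emptier droplets could not be used. Whether these barcodes also included debris or cells with little RNA was not tested. The free RNA estimates and all comparisons with the background below rest on this reading.

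In hepatocyte-like cells 5 of the 10 members were at least 2-fold higher in N-LKO than in WT: Saa1, Saa2, Lcn2, Orm2 and Hp. By the same rule 22.3% of 10629 genes tested were higher and 2.4% were lower, and 0 members were lower. Without cluster 6, 8 of 10 members were at least 2-fold higher against 5.58% of genes, the others being Saa4 and Crp. The median log2 ratio of the members was 1.11 and that of all genes was 0.39.

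Lcn2 changed most. WT cells had 15 CPM (252 UMIs, interval 13.2 to 17.0) and N-LKO cells 284 CPM (2461 UMIs, 273 to 296). The log2 ratio was 4.24 (4.06 to 4.44), and 0.668% of genes tested had a ratio as high. Without cluster 6 the N-LKO level was 446 CPM and the log2 ratio 4.89. With a mitochondrial limit of 10% the log2 ratio was lower, at 2.67, and it was 3.85 relative to the median of all genes. The median mitochondrial share of hepatocyte-like cells was 20.8% in WT and 15.3% in N-LKO. The limit of 10% therefore removed most of these cells in each library.

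Saa1 and Saa2, the acute phase serum amyloids, rose together. Saa1 went from 78.5 CPM in WT (74.3 to 82.9) to 466 CPM in N-LKO (452 to 481), and its log2 ratio was 2.57 (2.48 to 2.66). Saa2 was at 45.9 CPM (42.7 to 49.3) and 290.1 CPM (279 to 302), a log2 ratio of 2.66 (2.54 to 2.78). Without cluster 6 these ratios were 3.25 and 3.39, and with the mitochondrial limit of 10% they were 1.77 and 1.92. Saa3, known in the mouse also from macrophages and adipose tissue, was low in both libraries, at 9.28 CPM (7.88 to 10.9) and 15.8 CPM (13.3 to 18.7), with a log2 ratio of 0.77 (0.43 to 1.11). Saa4, a constitutive form, was at 115 CPM and 118 CPM, a log2 ratio of 0.05 (-0.06 to 0.16) that became 0.62 (0.50 to 0.74) without cluster 6. The 4 genes of this chromosome 7 cluster thus differed among themselves in size of change.

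The orosomucoids also differed from each other as counted. Orm1 and Orm2 transcripts were 97.7% identical over the last 300 bases, so UMIs of the pair may have been shared or dropped. Orm1 was the more abundant of the pair, with 453 CPM in WT cells against 792 in N-LKO cells and a log2 ratio of 0.81 (0.76 to 0.85). Orm2 was at 10.2 CPM (8.76 to 11.9) and 91.4 CPM (85.1 to 98.0), a log2 ratio of 3.16 (2.92 to 3.40) that was 2.54 with the mitochondrial limit of 10%. Orm3, the remaining gene of the locus and no member, had a log2 ratio of 2.51 (2.02 to 3.05).

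The scavengers of hemoglobin and heme were the most abundant members. Hp went from 615 CPM in WT (603 to 627) to 1635 CPM in N-LKO (1608 to 1662), and its log2 ratio was 1.41 (1.37 to 1.45). Hpx was at 1259 CPM and 1817 CPM, a log2 ratio of 0.53 (0.50 to 0.56) and 1.18 (1.15 to 1.21) without cluster 6. Crp was at 474 CPM and 630.0 CPM, a log2 ratio of 0.41 (0.36 to 0.46), close to the median of all genes. Without cluster 6 the Crp levels were 474 and 467 CPM and the log2 ratio was -0.02 (-0.09 to 0.05), so its difference between libraries was carried by that subgroup.

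**Figure D1:**
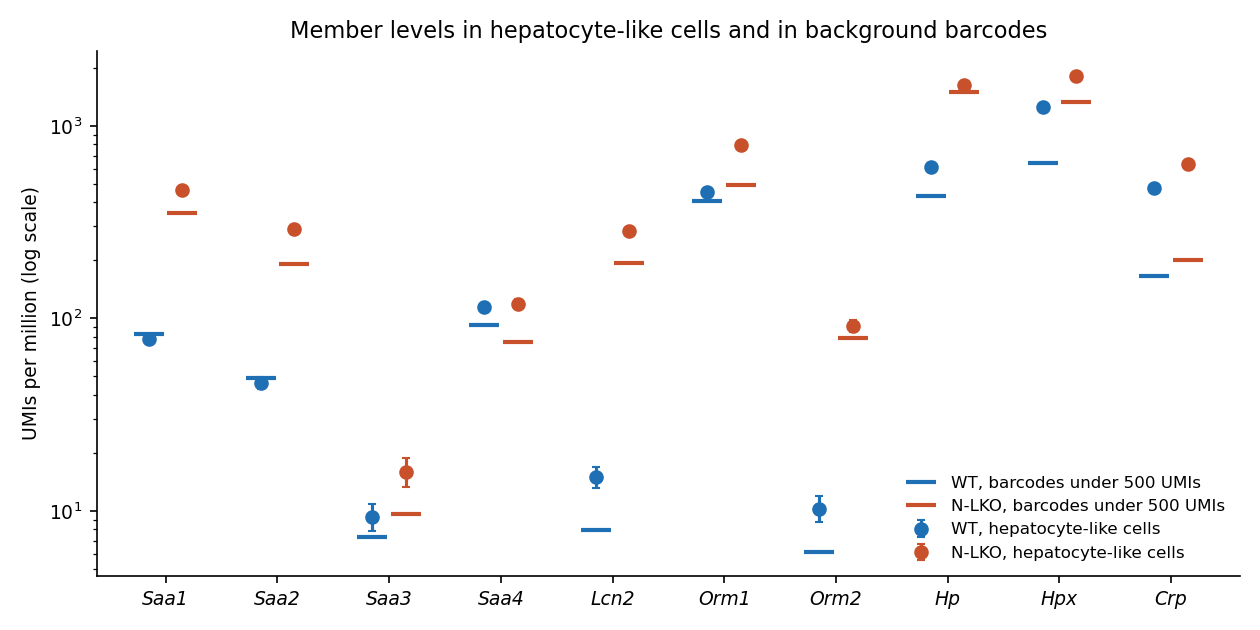
CPM (log axis) of each member in hepatocyte-like cells (dots, with 95% counting intervals) and in barcodes under 500 UMIs (short lines) of the WT and N-LKO libraries, 1 library each. Lcn2 moved from 15 to 284 and Saa1 from 78.5 to 466, and the background level of both genes also lay higher in N-LKO.

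**Figure D2:**
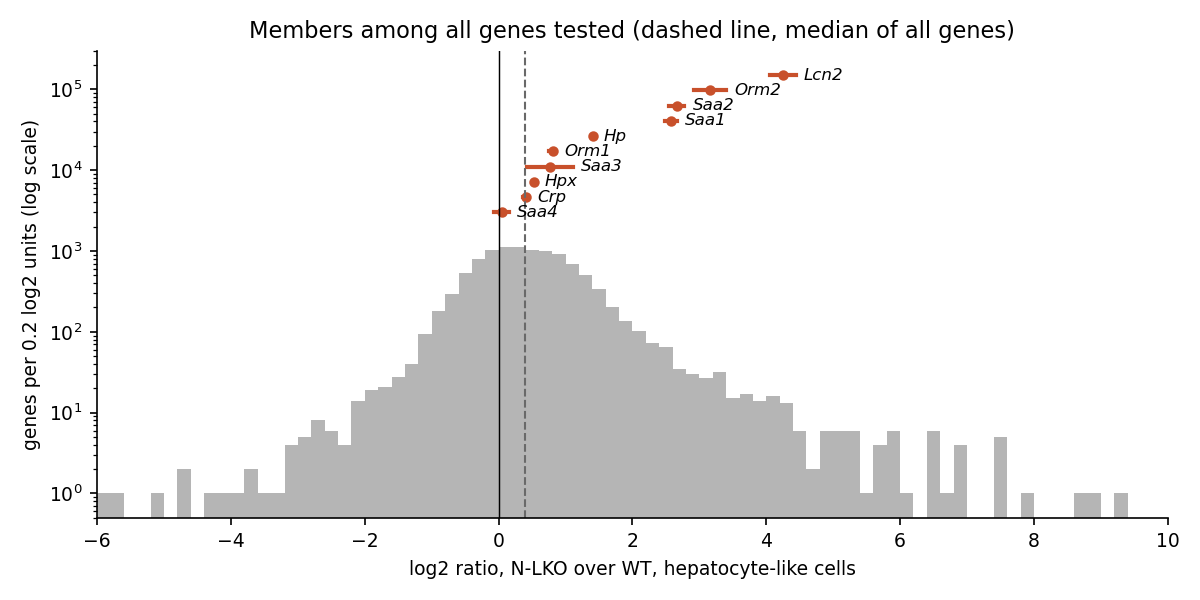
Histogram of the log2 ratio, N-LKO over WT, of the 10629 genes tested in hepatocyte-like cells (grey, log axis), with each member drawn as a dot and its 95% counting interval at an arbitrary height. Lcn2 (4.24), Orm2 (3.16), Saa2 (2.66) and Saa1 (2.57) lie in the upper tail, and Saa4 (0.05) lies below the median of 0.39.

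The background moved with these genes. In barcodes under 500 UMIs, Saa1 went from 82.4 CPM (WT) to 350.4 CPM (N-LKO). Lcn2 was at 7.96 and 195 CPM, and Hp at 433 and 1492 CPM. WT hepatocyte-like cells had no more Saa1 than their own background (log2 ratio -0.07, -0.20 to 0.07), nor more Saa2 (-0.09, -0.26 to 0.09), whereas Crp (1.52) and Hpx (0.97) stood well above it. In N-LKO all 10 members stood above the background, from 0.13 (0.09 to 0.17) for Hp to 1.65 for Crp on the log2 scale. The share of all genes above the background was not computed. A set of transcripts of other cell types put the free RNA in hepatocyte-like cells at up to 74.4% of UMIs in WT and 48.4% in N-LKO, while the depth of the background barcodes put it at fractions of 0.261 and 0.215 of UMIs. After subtraction of the larger estimate, 17.2 CPM of Saa1 remained in WT and 297 CPM in N-LKO.

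Within N-LKO, hepatocyte-like cells of cluster 7 carried most UMIs of 9 of the 10 members. Cluster 7 (1968 N-LKO and 92 WT cells) had Dnajc12, Serpina1e and Mup20 as its leading genes, with Orm1 among its first 10. Its cells were 47.2% of N-LKO hepatocyte-like cells and held 82.4% of their Saa1 UMIs, 85.2% of Saa2, 81.6% of Lcn2, 85.0% of Orm1 and 76.9% of Hp. Over all genes its N-LKO cells held 4400871 UMIs, against 4062427 in cluster 6. The share of all genes with most of their UMIs in cluster 7 was not computed. The subgroups were built from the same cells, so these levels are a description.

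Cluster 7 had 756 CPM of Saa1 (730.1 to 782) against 146 (135 to 158) in cluster 6. Lcn2 was at 457 CPM against 101, Hp at 2473 against 726, Hpx at 2884 against 645 and Orm1 at 1325 against 196. All 9 of these members, Saa3 and Saa4 included, were at least 2-fold higher in cluster 7, where 15% of 11155 genes were. This was not particular to the members. The summed hepatocyte markers were also higher in cluster 7 (36634 against 12402 CPM), with Alb at 16401 against 4213 CPM. The marker Cps1 was lower there (1784 against 2490 CPM). Crp went the other way, at 468 CPM in cluster 7 (448 to 488) and 814 CPM in cluster 6 (787 to 842), a log2 ratio of -0.80 (-0.88 to -0.72).

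Whether levels in cluster 6 stood above free RNA rested on the estimate. That from transcripts of other cell types was 199.6 CPM for Saa1, 111 CPM for Lcn2 and 850.1 CPM for Hp, against 146, 101 and 726 measured. The smaller estimate from depth was 80.3, 44.6 and 342 CPM for these genes, and all 3 stood above it. Crp was 7.14-fold and Saa4 1.25-fold above the larger estimate there. In cluster 7 all 10 members were above the larger estimate, from 4.08-fold for Hp to 6.59-fold for Orm1. The share of all genes above it was not computed. Relative to a panel of other hepatocyte genes, members in cluster 7 were at 0.77 (Hp) to 1.24 (Orm1) times their proportion in the background. The panel thus stood about as far above the background as the members did.

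WT cells that fell in cluster 7 were few and had high levels too. These 92 cells were 0.924% of WT hepatocyte-like cells and held 18.7% of WT hepatocyte-like Lcn2 UMIs and 6.74% of those of Saa1. Saa1 was at 450 CPM in them (361 to 553), Saa2 at 293, Lcn2 at 237 (174 to 316) and Hp at 1506. In the largest WT subgroup, cluster 1 (8147 cells), Saa1 was at 73.9 CPM and Lcn2 at 12.3 CPM. Conversely, 79 N-LKO cells fell in cluster 1 and had 611 CPM of Saa1 (488 to 756) and 208 CPM of Lcn2 (139.6 to 299). Within cluster 1 the log2 ratio, N-LKO over WT, was 3.06 for Saa1, 4.11 for Lcn2 and 1.60 for Hp, and within cluster 7 it was 0.74 (0.44 to 1.07), 0.93 (0.53 to 1.39) and 0.71 (0.55 to 0.89). Crp did not differ beyond counting error within either cluster (0.10, -0.26 to 0.42, and -0.03, -0.32 to 0.29).

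Crp followed another order over the subgroups. Among WT subgroups it was highest in the pericentral cluster 21 (151 cells, led by Slc1a2, Gulo and Glul) at 713 CPM and in the Malat1-rich cluster 18 (330 cells) at 604 CPM, with overlapping intervals, and lowest in cluster 10 (1241 cells, led by Gsta1) at 125 CPM. The same subgroups had 50.6, 29.5 and 100.1 CPM of Saa1. Crp was also among the leading genes of cluster 1.

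**Figure D3:**
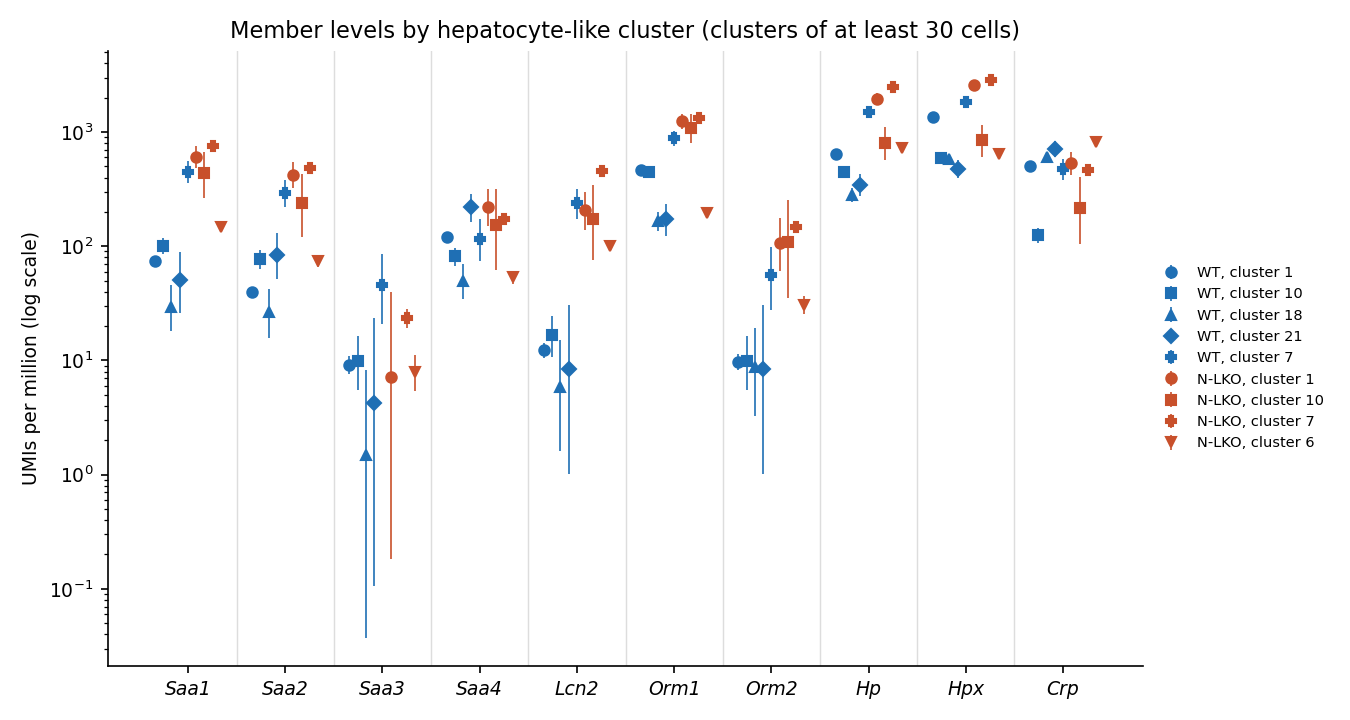
CPM (log axis) of each member by hepatocyte-like cluster and library, for clusters with at least 30 cells, with 95% counting intervals. Points of clusters at 0 UMIs are left out. For 9 members cluster 7 of N-LKO lies above cluster 6 of N-LKO, and for Crp the order is reversed (468 and 814).

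The serum amyloids were spread unevenly over single cells. In cluster 7 of N-LKO 42.0% of cells had no Saa1 or Saa2 UMI, and the tenth of cells with the most held 56.8% of all their Saa1 and Saa2 UMIs, up to 83 in 1 cell. In contrast, 0.203% of these cells lacked a UMI of every member, and the median was 16 member UMIs per cell against 4 in cluster 6. At an equal 1000 UMIs per cell, Saa1 was seen in 25.7% (24.4 to 27.1) of N-LKO hepatocyte-like cells and 6.2% (5.74 to 6.70) of WT ones (unthinned 36.1% and 9.29%, median depths 1788 and 1519 UMIs). T-like cells (T and NK cells, named by their markers), which should lack Saa1, showed it in 16.4% and 3.73% (median depths 1236 and 1166 UMIs). The share of cells with Saa1 in cluster 6 (14.4%, 12.9 to 16.0) lay at this background and that in cluster 7 (36.6%, 34.5 to 38.8) lay above it.

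For Lcn2 the shares of hepatocyte-like cells at equal depth were 18.4% in N-LKO and 1.25% in WT (unthinned 30.04% and 2.06%), against 9.83% and 0.883% of T-like cells. For Saa4 they were 10.1% (9.17 to 11.0) and 10.7% (10.1 to 11.3). In cluster 7, cells with a Saa1 or Saa2 UMI also had 6 of the 8 other members more often, with intervals apart. The share of all genes seen more often in these cells was not computed. Lcn2 was seen in 34.9% (31.7 to 38.2) of 863 such cells and in 24.0% (21.5 to 26.6) of 1105 cells without, and Orm1 in 72.1% and 58.6%. For Crp the shares were 37.8% (34.5 to 41.1) and 33.5% (30.7 to 36.4) and for Hp 84.2% (81.6 to 86.6) and 81.3% (78.8 to 83.5), and these intervals overlapped. In cluster 6 the shares with Lcn2 were 11.1% and 9.38%, also with overlapping intervals.

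Position along the lobule was read from pericentral and periportal genes in cells that had at least 5 such UMIs, split in 3 equal ranges per library (1965 N-LKO and 1221 WT cells had fewer). In N-LKO, 8 of the 10 members were higher in the periportal than in the pericentral range of hepatocyte-like cells. The share of all genes with such a slope was not computed, so this count is a description of the members only. Saa1 was at 778 CPM in the periportal and 405 CPM in the pericentral range, a log2 ratio, pericentral over periportal, of -0.94 (-1.08 to -0.81). Lcn2 was at 386 and 211 CPM (-0.87) and Hpx at 3103 and 1347 CPM (-1.20). Saa3 (0.71, -0.03 to 1.5) and Crp (0.00, -0.13 to 0.13) did not differ beyond counting error.

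In WT the serum amyloids and Lcn2 lacked this slope. Saa1 was at 80.4 and 76.6 CPM (-0.07, -0.27 to 0.13) and Lcn2 at 16.3 and 15.9 CPM (-0.04, -0.49 to 0.42). Hp (-0.61), Hpx (-0.82) and Orm1 (-0.64) had a slope in the periportal direction in WT, while Saa2 (0.39, 0.13 to 0.66) and Orm2 (0.74, 0.17 to 1.34) leaned pericentral. Cells of cluster 7 made up 74.3% of the periportal and 52.9% of the pericentral N-LKO range, and their part in the slope can be read within that cluster. There Saa1 was at 847 and 624 CPM (-0.44, -0.58 to -0.30), Lcn2 at 455 and 317 CPM (-0.52, -0.72 to -0.33) and Hpx at -0.75 on the log2 scale. These 3 slopes were smaller than over all cells and of the same direction, that of Orm2 was within counting error (-0.22, -0.58 to 0.14), and Saa3 leaned pericentral (1.18, 0.23 to 2.27). Crp, without a slope over all N-LKO cells, leaned slightly periportal within cluster 7 (-0.18, -0.36 to -0.01).

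**Figure D4:**
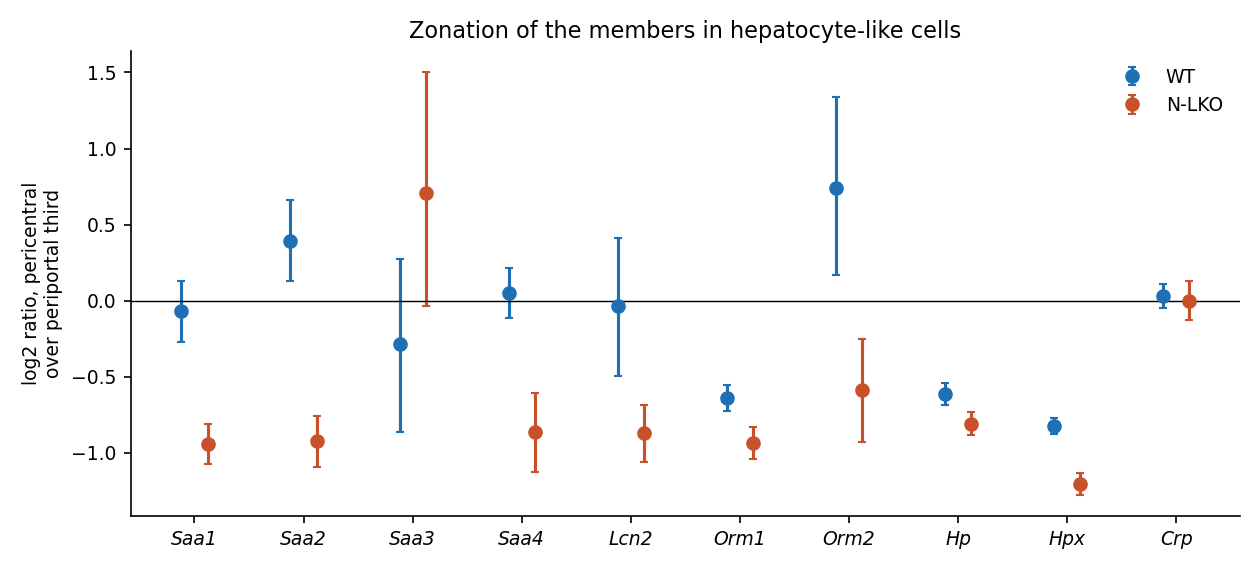
Log2 ratio of the level in the pericentral over that in the periportal range of hepatocyte-like cells, with 95% counting intervals, for WT and N-LKO. N-LKO points lie below 0 for 8 members, with Saa1 at -0.94, while WT points of Saa1, Lcn2 and Saa4 lie at 0 within their intervals.

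Outside hepatocytes most members were also higher in N-LKO, at levels near the larger of the free RNA estimates. In bulk sums over a class, more cells with RNA and more RNA per cell cannot be told apart. At least 2-fold higher were 6 of 10 members in endothelial-like cells (11.8% of genes), 6 in macrophage-like cells (3.4%), 7 in hepatic stellate-like cells (10.5%), 6 in T-like cells (15.6%), 7 in B-like cells (13.6%), 6 in dendritic-like cells (12.1%), 7 in plasmacytoid dendritic-like cells (13.5%), 4 in neutrophil-like cells (13.9%) and 4 of 9 in cholangiocyte-like cells (12.6%). In T-like cells Saa1 went from 33.4 CPM (WT) to 178 CPM (N-LKO), and the free RNA estimates were 42.2 and 195 CPM. Hp was at 249.8 and 738 CPM there, with estimates of 222 and 831 CPM. Over all non-hepatocyte classes, 22 of 120 values in WT and 23 of 120 in N-LKO lay above the estimate, and 0 and 15 lay below it. With the smaller estimate from depth, 142 of the 240 values lay above it, so the count rests on the estimate.

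Lcn2 was highest in neutrophil-like and cholangiocyte-like cells in both libraries. Neutrophils store lipocalin-2 in granules. Their level was 392 CPM (298 to 505, 108 cells) in WT and 405 CPM (369 to 444, 733 cells) in N-LKO cells, and the log2 ratio was 0.04 (-0.34 to 0.47), with free RNA estimates of 4.02 and 113 CPM. Cholangiocyte-like cells had 281 CPM (225 to 346, 199 cells) and 537 CPM (489.9 to 587, 494 cells), a log2 ratio of 0.93 (0.60 to 1.28), with estimates of 3.29 and 81.2 CPM. In WT the intervals of both classes overlapped each other and lay above that of hepatocyte-like cells (15 CPM). In N-LKO the order was cholangiocyte-like, neutrophil-like and hepatocyte-like (284 CPM), each apart from the next by its interval, with T-like cells next at 104 CPM and macrophage-like cells at 68.7 CPM. The interval of cluster 7 (437 to 477 CPM) overlapped that of neutrophil-like cells. Of 7 neutrophil markers, 6 were detected in hepatocyte-like cells of each library, at a summed 18.8 (WT) and 51.6 (N-LKO) CPM, and Ly6g was at 0. S100a8, a defining neutrophil gene, was at 6.19 and 15.2 CPM there against 5141 and 3388 CPM in neutrophil-like cells.

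Saa3 was low in every class. In macrophage-like cells it went from 7.0 CPM in WT (4.82 to 9.83, 33 UMIs) to 18.3 CPM in N-LKO (15.9 to 20.9, 217 UMIs), and its log2 ratio was 1.37 (0.85 to 1.96), with free RNA estimates of 2.52 and 3.46 CPM. These intervals overlapped those of hepatocyte-like cells in both libraries. Most UMIs came from cluster 4, led by monocyte genes such as Ccr2 and F13a1, which had 18.1 CPM in WT (10.9 to 28.2) and 55.4 CPM in N-LKO (46.2 to 65.8). The largest Kupffer-like cluster had 3.66 and 7.74 CPM. In N-LKO dendritic-like cells Saa3 was at 34.1 CPM (31 UMIs), of which 25 were in 1 cell. At equal depth Saa3 was seen in 1.31% of N-LKO macrophage-like cells and 0.599% of WT ones, against 0.583% and 0.589% of T-like cells.

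Crp was above its free RNA estimate in every N-LKO class with at least 100 cells. Among the 9 non-hepatocyte classes the excess was smallest in macrophage-like cells (78.4 CPM against 71.6) and largest in cholangiocyte-like cells (353 against 83.4 CPM, 4.23-fold), and it was 2.60-fold in T-like and 2.76-fold in endothelial-like cells. In WT it was above the estimate in cholangiocyte-like cells only (252 against 68.5 CPM), among the 9 non-hepatocyte classes compared. Crp and the members Saa1, Saa2, Saa4, Orm1, Orm2, Hp and Hpx, were highest in hepatocyte-like cells among classes of at least 100 cells in both libraries. In N-LKO, Saa1 ranged from 85.8 CPM in dendritic-like to 194 CPM in neutrophil-like cells among these 9 classes and Hp from 523 to 868 CPM, and neighbours in these orders mostly overlapped in their intervals.

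**Figure D5:**
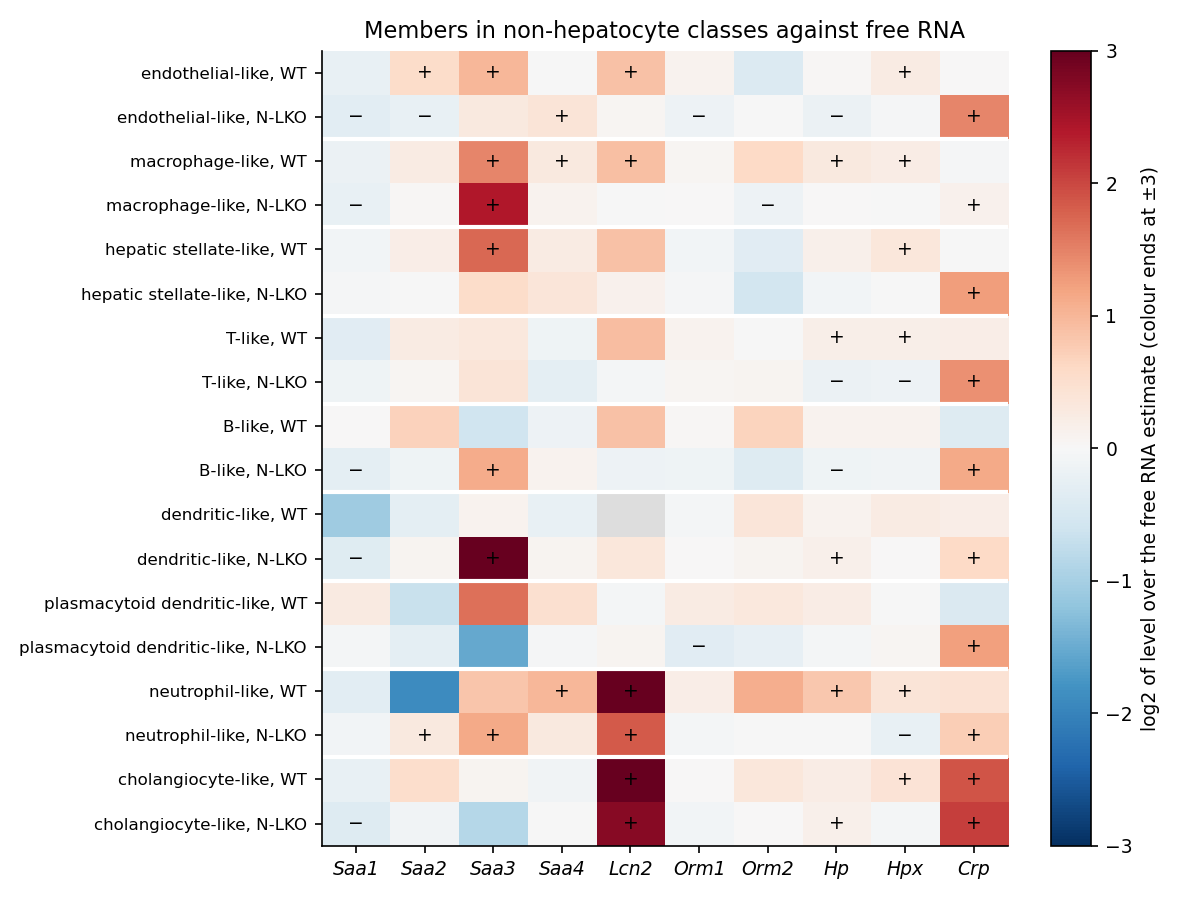
Log2 of the measured level over the free RNA estimate for each member (columns) in 9 non-hepatocyte classes by library (rows). A plus or minus marks a 95% counting interval wholly above or below the estimate, and grey marks 0 UMIs. The strongest red cells are Lcn2 in neutrophil-like (392 CPM in WT) and cholangiocyte-like cells and Saa3 in dendritic-like and macrophage-like cells of N-LKO, with Crp raised over most N-LKO rows.

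Of 29 other acute phase genes, 28 could be compared in hepatocyte-like cells, and 9 were at least 2-fold higher in N-LKO and 0 lower, with a median log2 ratio of 0.60 against 0.39 for all genes and with the 22.3% of genes given above. The largest ratios were those of the metallothioneins Mt2 (5.18 to 195 CPM, log2 ratio 5.23) and Mt1 (43.9 to 929.5 CPM, 4.40), which bind zinc, and of Cd14 (1.01 to 8.66 CPM, 3.07), a co-receptor for bacterial lipopolysaccharide. The smallest were those of Mbl2 (-0.81), a mannose-binding lectin, Apoa5 (-0.76) and Serpina3m (-0.70). Of 12 negative acute phase genes, which fall in inflammation, 1 was at least 2-fold higher and 2 lower, with a median of -0.15. Alb, the gene for albumin, had a log2 ratio of -1.04 (21807 to 10600.4 CPM), Serpina6, which carries glucocorticoids, of -1.02 and Igf1 of -0.37. At the other end were Serpina7 (1.38), the carrier of thyroid hormone, Cyp3a11 (1.00) and Apoa1 (0.36). Within N-LKO, Alb was at 4213 CPM in cluster 6 and 16401 CPM in cluster 7, so its ratio rests in part on cluster 6. The negative acute phase genes were not compared without that cluster.

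Among 26 signalling genes compared, 7 (against 22.3% of all genes) were at least 2-fold higher and 1 (against 2.4%) lower, with a median of 0.62. The receptors Il1r1 (37.5 to 350.4 CPM, log2 ratio 3.22) and Osmr (3.57 to 16.2 CPM, 2.17), for interleukin-1 and oncostatin M, and the feedback inhibitor Socs3 (1.90 to 7.16 CPM, 1.90) had the largest ratios, and Cebpa (-1.06), Irak1 (-0.28) and Myd88 (-0.23) the smallest. Il6 was scarce, with 31 UMIs in WT and 93 in N-LKO over all named classes. In macrophage-like cells it was at 4.88 and 5.39 CPM (log2 ratio 0.12, -0.56 to 0.90). Tnf, named with Il6 and Il1b after their values were seen, was at 17.0 and 36.6 CPM in macrophage-like cells (1.10, 0.76 to 1.47) and Il1b at 237 and 183 CPM (-0.38, -0.48 to -0.27).

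Of 12 receptors and partners of the member proteins, 6 could be compared, 2 being at least 2-fold higher (22.3% of all genes) and 1 lower (2.4%), with a median of 0.40 against 0.39 for all genes. These were P2rx7 (1.36), a nucleotide-gated channel, Scarb1 (1.30), the receptor for high-density lipoprotein, and Cd163, the macrophage receptor for haptoglobin bound to hemoglobin. Cd163 had 180 UMIs in WT hepatocyte-like cells and 1 in N-LKO (log2 ratio -5.95, -11.85 to -4.04). In macrophage-like cells, where it belongs, it went from 165 CPM in WT (778 UMIs) to 3.03 CPM in N-LKO (36 UMIs), and its log2 ratio was -5.75 (-6.29 to -5.28). Tlr4 (0.63), Hmox1 (0.16) and Lrp1 (0.11), the receptor for hemopexin bound to heme, changed less. The receptors and partners, too, were neither compared without cluster 6 nor set against free RNA. The receptors of lipocalin-2, Slc22a17 and Lrp2, were below 5 CPM in both libraries.

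Over 34 profiles of a cluster in a library, which share libraries and depth and are not independent, the genes whose log2 levels were most like those of Saa1 were Apoa4 (Pearson r 0.91), Fgl1 (0.90) and Lrg1 (0.89). For Hp they were Apoa4 (0.94), C3 (0.91) and Lrg1 (0.90). For Lcn2 they were Prss8 (0.84), Slc39a4 (0.84) and Ifi27l2b (0.77). For Saa3 the highest values were lower, for AI839979, Klri1 and Ltb4r1 (each 0.55).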

How the data were processed

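Single-cell 3′ RNA-seq of mouse liver cells (10x Genomics v3 kit) was analysed from 2 deposited matrices of UMI counts, 1 per library. The authors made these counts with Cell Ranger, and the file headers give its version as 7.1.0. The submitters' notes also name Seurat and the mouse build mm9. The files hold no coordinates, so positions came from GENCODE vM21 (GRCm38) and promoters from RefSeq (GRCm38.p6). The deposited counts were not normalized and no column of other samples was used.

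Barcodes with at least 1000 UMIs, 400 genes and at most 30% mitochondrial UMIs were kept, and those with a Scrublet score above 0.25 were removed (8.55% and 10.6%). Both libraries were clustered together with scanpy 1.11.5 and leidenalg 0.10.2 (2000 variable genes without the members, 30 components, 20 neighbours, resolution 0.3), and clusters were named by marker lists. UMIs were summed per class and library and scaled to CPM. Ratios had 0.5 UMIs added to each sum. A gene was compared where its level reached 5 CPM in either library, and a class where both libraries had at least 100 cells. Intervals of levels are exact Poisson, of ratios exact conditional binomial, of shares Clopper-Pearson, all at 95%, and a count of 0 allows up to 3 counts. They cover counting error only. The free RNA estimate was the background level times a share read from panel genes of other cell types, and shares of cells used cells thinned to 1000 UMIs. Hepatocyte-like cells were cut in 3 ranges by pericentral over pericentral plus periportal UMIs. The script was tested on simulated data.

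Named genes beside the members were the 3 with the largest and the 3 with the smallest ratio of each list, and the 3 most alike in profile for Saa1, Saa3, Lcn2 and Hp. The members and lists were chosen with earlier results of these data known. Alternatives covered the filters, doublets, clustering, scaling, free RNA, fold limit and gene filter.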

Additional observations from a re-analysis of the deposited data

Results flagged for a closer look

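Classes with fewer than 100 cells in a library were left out of the comparisons above, and 6 values in them lay above the free RNA estimate. In N-LKO plasma-like cells (248 cells) Saa2 was at 110.1 CPM (80.6 to 147) against an estimate of 68.7 and Crp at 103 CPM (74.5 to 139) against 71.8. Crp was also above it in N-LKO mesothelial-like cells (79 cells), at 154 CPM (92.5 to 240.0) against 69.5, and in N-LKO erythroid-like cells (115 cells), at 249 CPM (181 to 334) against 99.1. In WT, Hp was at 294 CPM (164 to 485) against 155 in mesothelial-like cells (34 cells, 15 UMIs) and Hpx at 802 CPM (606 to 1041) against 411 in erythroid-like cells (49 cells, 56 UMIs). The part of doublets and of the estimate itself in these values was not tested.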

How the results depend on the processing

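The 5 members at least 2-fold higher in hepatocyte-like cells became 8 when cells were clustered again with a UMI minimum of 500, with no mitochondrial limit or with doublets kept, and 8 when cluster 6 was left out. Each of these 3 clusterings held a large N-LKO cluster that scored highest for hepatocyte and stayed unnamed. Counting unnamed clusters that scored highest for hepatocyte, an alternative chosen after seeing the data like the one without cluster 6, gave 5 in each. The other counts were 4 to 7, and 16 of 20 lay within 1.5 times of 5. Of 180 member ratios under 18 alternatives, 169 were above 0 and 0 of those past 2-fold changed sign. Dropping the gene filter, included in these totals and in the 20 counts, could not change a member value. All 10 members had already passed that filter. Lcn2 ranged from 2.67 to 4.95, Saa1 from 1.77 to 4.11, Saa2 from 1.92 to 4.35 and Orm2 from 2.54 to 3.93, each lowest with a mitochondrial limit of 10%. Below 0 were values of Saa4 (lowest -0.35) and Crp (lowest -0.13). The 53 of 89 pairs of a member and a non-hepatocyte class at least 2-fold higher fell to 11 with free RNA subtracted. The 45 of 240 values above free RNA became 142 with the share from depth (chosen after seeing the data), which assumes that a cell holds as much free RNA as a background barcode. All other counts stayed within 1.5 times. No paired analysis was possible because each group had 1 library and the groups share fewer than 2 replicate numbers, and for the same reason no library could be left out. Depth limits Saa3, Orm2 in WT and all members in small classes, where a level of 1 to 15 UMIs has a wide interval.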
